A study of Mus musculus with 6 samples.

Results

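The semaphorins, their plexin receptors and the neuropilin co-receptors form one signalling family, which the mouse annotation GENCODE M21 lists as 31 protein-coding genes. They were chosen by symbol alone (Sema followed by a digit, Plxn, Nrp1 and Nrp2), and all 31 were among the 23508 genes of the counts table. The family held 20 semaphorins, 9 plexins and 2 neuropilins. RNA sequencing was run on 6 tumors of 4T1, an established mouse mammary carcinoma line that models triple-negative disease. Of these, 3 were taken before neural activity first peaked (before peak) and 3 on the day of that peak (with peak). The labels give no agent, allele, host strain or age for either group, so tumor age and the peak cannot be told apart, nor do they tie each tumor to its own animal. The p-values therefore measure only the spread between these samples.

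Semaphorins are secreted or membrane-bound guidance proteins that share an extracellular sema domain. Plexins carry the signal into the cell through a GTPase-activating domain that acts on small Ras-family and Rap proteins, and most class 3 semaphorins, which are secreted, need a neuropilin to reach a plexin. In growing sympathetic nerves Sema3a acts as a repellent through Nrp1 and Sema3f through Nrp2, while in tumors the same family is also read by blood vessels, macrophages and carcinoma cells. In bulk tissue, fewer cells of a type and less RNA per cell cannot be told apart.

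No member passed the edgeR quasi-likelihood test (Benjamini-Hochberg adjusted p under 0.05): 0 of 31, where the share over all 16755 genes tested was 0.0%. All 31 members passed the filter on low counts. The smallest edgeR adjusted p in the family was 0.29, for Sema3c. At an unadjusted p under 0.05 stood 6 members, or 19.4%, against 9.5% of all genes tested. Sema3c, Sema6c and Sema4a were the 3 that were higher with peak, where 6.12% of all genes were, and Sema5a, Sema4c and Plxnb1 the 3 that were lower, against 3.38%. The 2 groups of tumors did not overlap for 5 members, or 16.1%, against 15.5% of all genes, a share near the background. Of those 5, Sema3c, Sema6c and Sema4a were higher (8.13% of all genes) and Sema5a and Plxnb1 lower (7.38%). DESeq2, run as an alternative, called 1 member, Sema3c, which was higher, and 1.44% of all genes in that direction (1.59% in either), and limma-voom called 0. The family's median log2 fold change (with peak over before peak) was 0.03, beside -0.02 for all genes tested, so both lay close to 0. With library size alone as the scaling the 2 medians were -0.03 and -0.07. The family's median was also negative when before-peak replicate 1 (-0.03) or 2 (-0.02) was left out, or with-peak replicate 3 (-0.02). The median size of the log2 fold change, regardless of sign, was 0.29 in the family and 0.19 over all genes.

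**Figure D1:**
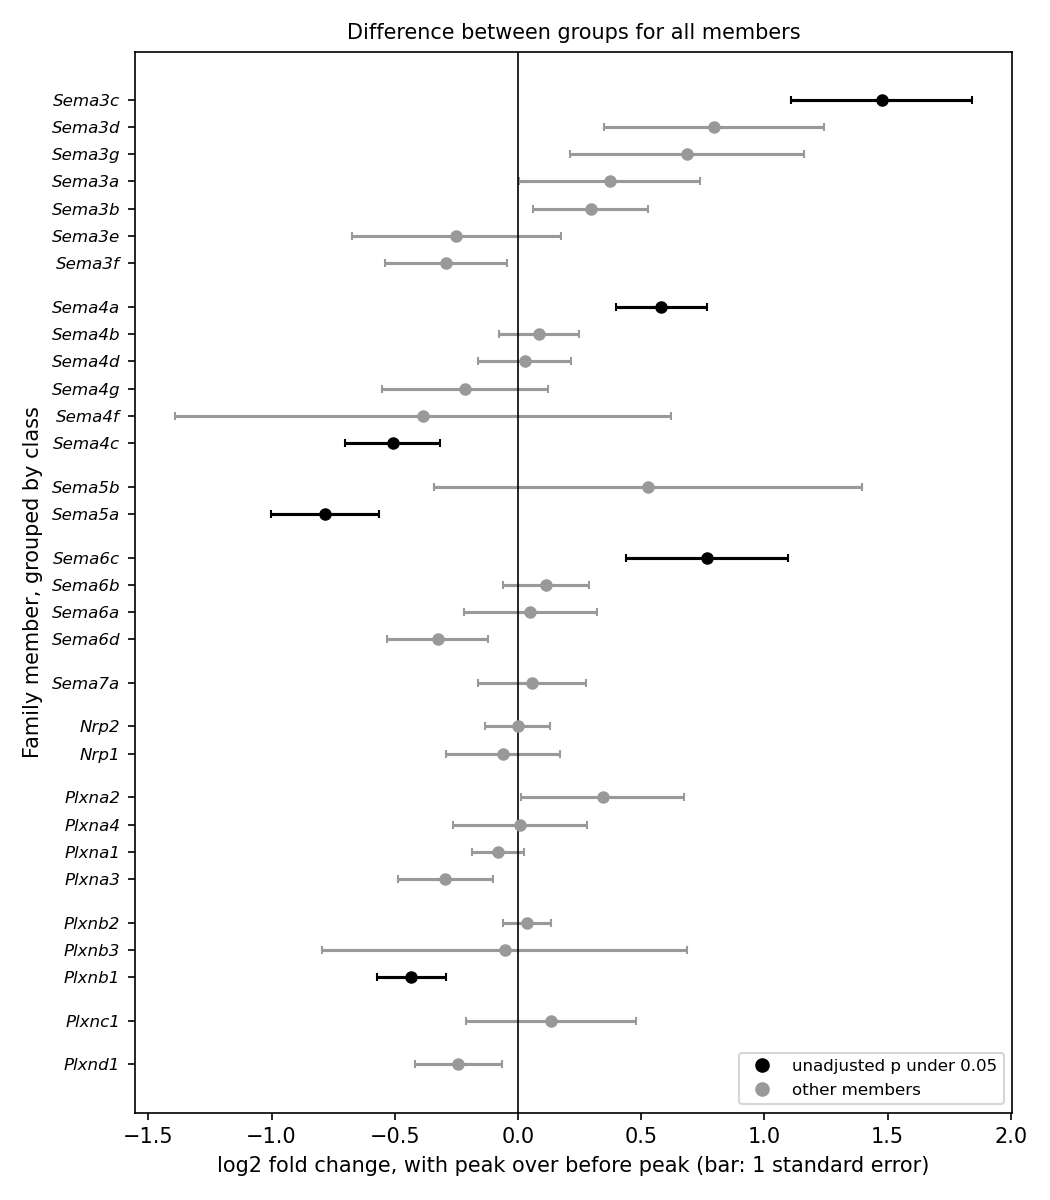
Log2 fold change (x axis, with peak over before peak, n = 3 tumors each) of the 31 members, grouped by class, with bars of 1 standard error from the edgeR fit. Black points mark the 6 members at an unadjusted p under 0.05, from 1.48 for Sema3c down to -0.78 for Sema5a; the neuropilins and Plxnb2 sit close to 0.

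A feature that the choice by symbol did not use was the sequence before the transcription start given by RefSeq. RefSeq windows of 250 bases before the start were matched by symbol for 26 members (37 windows, GRCm38.p6). No window was available for Sema3b, Sema3f, Plxna1, Plxna4 and Sema6a. Some of the windows, such as those of Sema3a, Sema3c and Plxna2, lie inside the gene as GENCODE M21 draws it. GGGCGG, the GC box bound by Sp1-type factors, was searched on both strands and lay in 27 of the 37 windows (73.0%), against 42.6% of the windows of all protein-coding genes. TATAAA, the TATA box, lay in 0 of 37, against 11.6%, and TGACGTCA, the cAMP response element downstream of beta-adrenergic receptors, in 0 of 37, against 1.92%. With a background share as low as 1.92%, a count of 0 in 37 windows does not show that TGACGTCA is rarer in the family. TGANTCA, the AP-1 site, lay in 3 (8.11%, against 6.13%) and CACGTG, the E-box, in 2 (5.41%, against 6.63%). Family windows had a median GC content of 64.0%, against 55.6% for protein-coding genes, and windows of 1 gene overlap in part. Shown are the stretches before the outermost start of Sema4a (chr3:88461183-88461432, minus strand) and of Sema5a (chr15:32244563-32244809, plus strand), 1 member higher and 1 lower with peak. Each is printed 5′ to 3′ on the strand of the gene, from RefSeq, with GC boxes on either strand in capitals.
Sema4a: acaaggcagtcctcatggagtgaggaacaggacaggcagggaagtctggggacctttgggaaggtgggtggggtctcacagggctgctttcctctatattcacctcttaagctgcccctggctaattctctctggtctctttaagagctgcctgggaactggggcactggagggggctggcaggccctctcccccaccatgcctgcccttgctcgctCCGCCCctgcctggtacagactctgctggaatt
Sema5a: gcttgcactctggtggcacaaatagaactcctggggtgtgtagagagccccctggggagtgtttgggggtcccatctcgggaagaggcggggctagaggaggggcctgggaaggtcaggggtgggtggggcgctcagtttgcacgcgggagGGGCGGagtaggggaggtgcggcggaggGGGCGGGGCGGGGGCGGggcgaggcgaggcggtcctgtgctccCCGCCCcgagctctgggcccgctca
The Sema4a window held 1 GC box and the Sema5a window 5, of which 3 run together. A match to these letters is a description of the sequence, and the expression data do not bear on whether a factor binds there.

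Levels are compared between genes as RPKM, here CPM (counts scaled to the TMM-corrected library size) per kilobase of the gene's merged exons. The family spanned from 39.9 RPKM for Plxnb2 down to 0.08 RPKM for Sema5b, as means over the 6 tumors. Next below Plxnb2, a plexin that binds class 4 semaphorins such as Sema4c, came Sema3f at 30.1, Sema4c at 27.9, Sema7a at 25.5, Nrp2 at 22.1, Plxnd1 at 18.1 and Plxna1 at 14.6 RPKM. The ranges over the tumors overlapped between all neighbours in this order except between Plxna1 and Plxnb1, at 9.68 RPKM, and between Sema3a, at 0.22 RPKM, and Plxnb3, at 0.10 RPKM. By these ranges, most positions in the order are not separated from the next. The ranges do not compare 2 genes within the same tumor. Within tumors, Plxnb2 was above Sema3f in all 6, while Sema3f was above Sema4c in some tumors and below it in others. Summed over all members, the level was 250.0 ± 23.2 RPKM before the peak and 235.2 ± 15.5 RPKM with it (SD, n = 3), with overlapping groups.

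**Figure D2:**
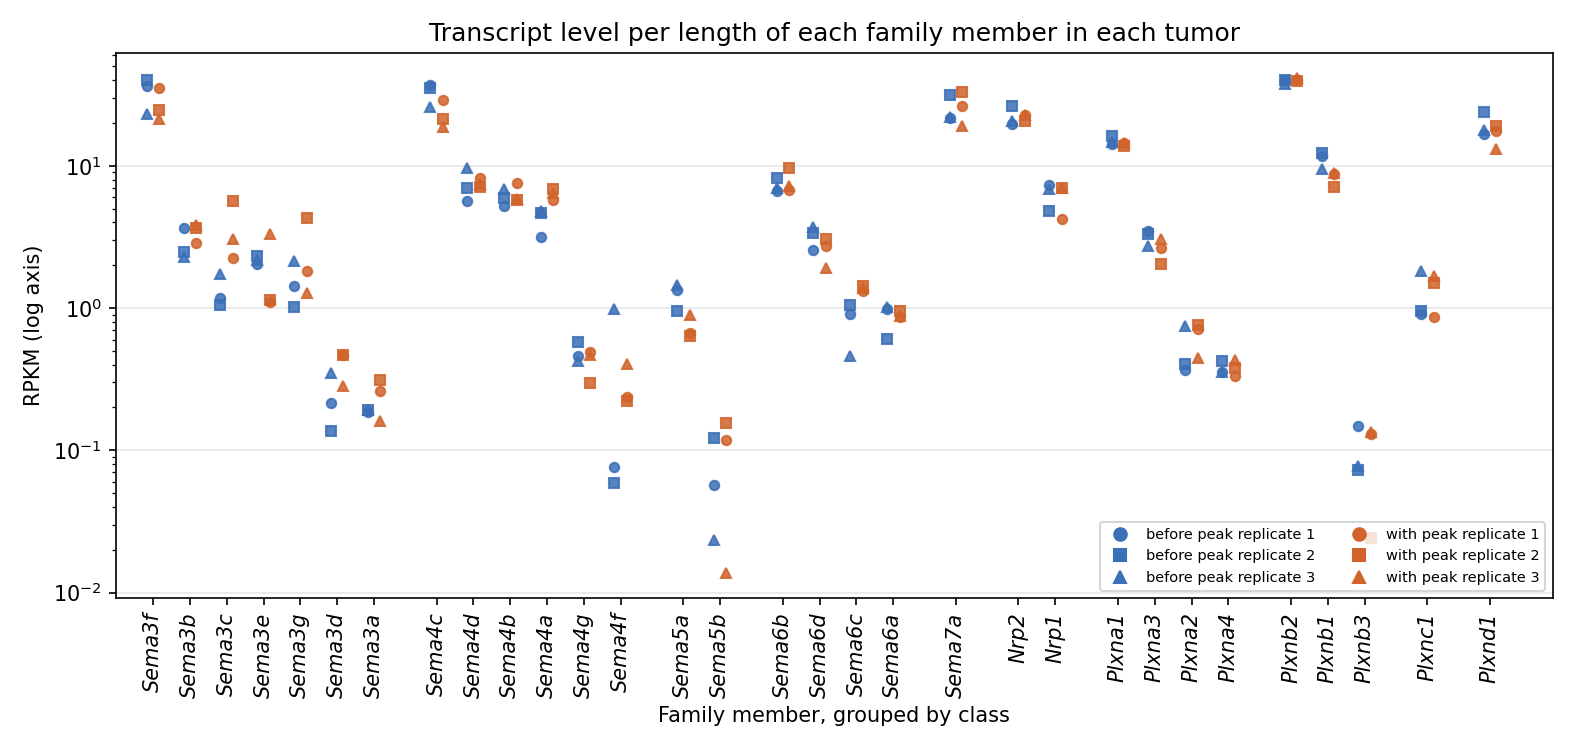
RPKM (log axis) of each member in each of the 6 tumors, grouped by class and ordered within a class by mean level; blue marks are before-peak and orange with-peak tumors, and the marker shape gives the replicate. Plxnb2, at 37.7 to 41.5 RPKM, varied little between tumors, while Sema4f ranged from 0.06 to 0.99 RPKM.

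Class 3 semaphorins are the secreted ligands that act through neuropilins, and the log2 fold change was positive for 5 of their 7 genes (class median 0.37, or 0.16 without with-peak replicate 2 and 0.60 without with-peak replicate 3). Sema3c (ENSMUSG00000028780, chromosome 5, 17574281 to 17730268), a ligand of both neuropilins known from heart outflow development and from carcinoma cells, had the largest difference in the family. It was at 8.35, 7.44 and 12.4 CPM in the before-peak tumors (replicates 1, 2 and 3, the order used throughout) and at 15.9, 40.6 and 21.9 CPM in the with-peak tumors. Every with-peak tumor lay above every before-peak tumor, and with-peak replicate 2 stood highest. The log2 fold change was 1.48 (SE 0.37), or 2.78-fold, with an edgeR adjusted p of 0.29 and an unadjusted p of 0.00398. DESeq2 gave an adjusted p of 0.00413 and limma-voom one of 0.36, in a range over the alternatives of 0.00413 to 0.577. Without with-peak replicate 2 the log2 fold change was 1.00, and without any 1 of the other tumors it was 1.33 to 1.74.

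With-peak replicate 2, where Sema3c was highest, also had the highest summed CPM of the fibroblast, endothelial, macrophage, skeletal muscle and neuron marker lists. Its muscle sum was 1547 CPM, beside 1541 CPM in with-peak replicate 3, and its neuron sum was 8.85 CPM. By replicate, the 9 fibroblast markers summed to 7262, 6979 and 11908 CPM before the peak and to 9072, 17499 and 10533 CPM with it. All 9 had a positive log2 fold change. The 9 endothelial markers, all 9 positive, summed to 424 to 510 CPM before the peak and to 376 to 769 CPM with it. Sema3g, a class 3 semaphorin of endothelial cells that acts through Nrp2, was at 6.50, 4.62 and 9.75 CPM before the peak and at 8.28, 19.4 and 5.82 CPM with it. It too was highest in with-peak replicate 2, and without that tumor its log2 fold change of 0.69 (SE 0.48) was 0.02. The part of any of these cell types in the values of Sema3c and Sema3g was not tested, and no fibroblast or endothelial marker was at 0 in any tumor.

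Sema3f was the main class 3 transcript, at 188, 208 and 120 CPM before the peak and at 182, 128 and 112 CPM with it. The groups overlapped, and the log2 fold change was -0.29 (SE 0.25, edgeR adjusted p = 0.759). Leaving out before-peak replicate 2 or 3 gave -0.13 or -0.49, and leaving out with-peak replicate 1 or 3 gave -0.515 or -0.15. Per length, Sema3f made up 80.6%, 84.7% and 72.2% of the summed class 3 RPKM before the peak and 80.0%, 61.3% and 64.3% with it. Sema3c made up 2.60%, 2.21% and 5.43% before the peak. With it, the share of Sema3c was 5.09%, 14.1% and 9.19%. Before-peak replicate 3 thus had a larger share of Sema3c than with-peak replicate 1, so the shares overlap although the CPM values do not. The summed level of the class was 41.4 ± 8.16 RPKM before the peak and 39.1 ± 5.27 RPKM with it (SD, n = 3).

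**Figure D3:**
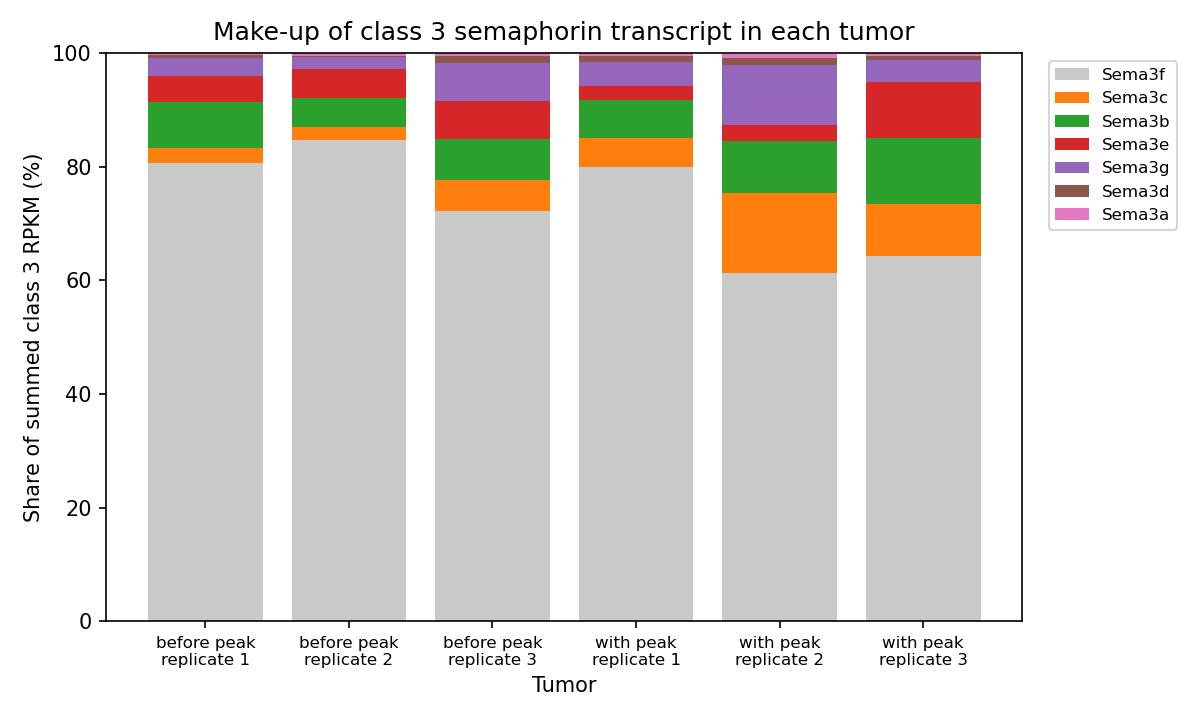
Share of each class 3 semaphorin in the summed RPKM of the class (y axis, percent), 1 bar per tumor. Sema3f holds 61.3% to 84.7% of the class in all 6 tumors, and Sema3c is widest in with-peak replicate 2, at 14.1%.

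Sema3a, the repellent of sympathetic axons, was low, at 2.57, 2.66 and 2.67 CPM before the peak and at 3.65, 4.31 and 2.23 CPM with it, on 23 to 55 counts per tumor. With-peak replicate 3 was the lowest of all 6, and the log2 fold change was 0.37 (SE 0.37, edgeR adjusted p = 0.786). Leaving out with-peak replicate 2 gave 0.16, and leaving out with-peak replicate 3 gave 0.60. Sema3d, a relative of Sema3a, was also low, at 1.17 to 3.00 CPM before the peak and 2.43 to 4.00 CPM with it, for a log2 fold change of 0.80 (SE 0.45). Sema3b, a ligand of both neuropilins, had a log2 fold change of 0.30 (SE 0.23), at 11.0 to 17.6 and 13.7 to 18.3 CPM. Sema3e, which binds Plxnd1 without a neuropilin, was at 19.0, 21.7 and 20.3 CPM before the peak and at 10.3, 10.6 and 30.7 CPM with it. The before-peak tumors were close together while the with-peak tumors lay on both sides of them, and the log2 fold change of -0.25 (SE 0.42) was -0.96 without with-peak replicate 3. Sema3a, Sema3c, Sema3d and Sema3e all lie on chromosome 5, within 12383385 to 17730268, and of these neighbours only Sema3c had groups that did not overlap; a difference between the neighbours was not tested.

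Class 4 semaphorins are membrane-bound ligands, many of which bind B-type plexins. Of 6 genes, 3 had a positive log2 fold change and 3 a negative one, and the class median was -0.09, which became 0.22 without before-peak replicate 3. Sema4a (ENSMUSG00000028064, chromosome 3, 88435959 to 88461182), a class 4 member of macrophages and dendritic cells that acts on T cells, was at 17.2, 25.3 and 26.2 CPM before the peak and at 31.1, 36.9 and 34.7 CPM with it. The groups did not overlap, and the log2 fold change was 0.58 (SE 0.18), or 1.5-fold, with an edgeR adjusted p of 0.39 and an unadjusted p of 0.0107. The 11 macrophage markers, all 11 with a positive log2 fold change and none at 0 in any tumor, summed to 2089 to 3453 CPM before the peak and to 3883 to 5560 CPM with it. These sums did not overlap either. By replicate they were 3453, 2089 and 2705 CPM before the peak and 3883, 5560 and 4292 CPM with it. Before-peak replicate 1 thus had the highest sum of its group but the lowest Sema4a. With-peak tumors were in the same order for both. The part of these markers in the level of Sema4a was not tested.

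Sema4c (ENSMUSG00000026121, chromosome 1, 36548639 to 36558349), a ligand of Plxnb2, was the main class 4 transcript. It was at 170, 161 and 119 CPM before the peak and at 133, 97.9 and 85.6 CPM with it. Before-peak replicate 3 lay below with-peak replicate 1, so the groups overlapped. The log2 fold change was -0.51 (SE 0.19), or 0.703-fold, with an edgeR adjusted p of 0.471 and an unadjusted p of 0.0275. The exons of Sema4c share 334 bases with D430040D24Rik on the opposite strand, which the unstranded libraries cannot separate. D430040D24Rik held 1231 counts over the 6 tumors against 9643 for Sema4c. Its own counts were 304, 234 and 183 before the peak and 253, 147 and 110 with it. Within each group they fell from replicate 1 to replicate 3, as the CPM of Sema4c did. The part of D430040D24Rik in the Sema4c values was not tested.

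Sema4d, the ligand of Plxnb1 also known as CD100 on lymphocytes, was at 43.4, 53.6 and 74.4 CPM before the peak and at 63.1, 54.3 and 57.1 CPM with it, for a log2 fold change of 0.03 (SE 0.19). Before-peak replicate 3 was the highest, and the with-peak tumors lay inside the before-peak range. Sema4b, a membrane ligand of the same class, had a log2 fold change of 0.08 (SE 0.16) at 29.5 to 38.5 and 32.3 to 42.5 CPM, and Sema4g one of -0.21 (SE 0.34) at 3.67 to 5.01 and 2.59 to 4.28 CPM. Sema4f, a class 4 member of neural tissue, was at 0.40, 0.31 and 5.25 CPM before the peak and at 1.26, 1.18 and 2.13 CPM with it. One tumor, before-peak replicate 3, carried 63 of the 127 counts of Sema4f, and without it the log2 fold change turned from -0.39 (SE 1.01) to 2.05. The same tumor had the highest sums of B and plasma cell markers, 370 CPM against 3.76 to 73.2 CPM in the others, and of T and NK cell markers, 155 CPM against 13.4 to 52.1 CPM. The part of these cells in the Sema4f and Sema4d values was not tested.

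Class 5 semaphorins are membrane proteins with thrombospondin repeats, and the 2 genes differed widely in level. Sema5a (ENSMUSG00000022231, chromosome 15, 32244810 to 32696341), which binds Plxnb3 and can attract or repel axons, was at 25.2, 17.9 and 27.3 CPM before the peak and at 12.5, 11.9 and 16.6 CPM with it. Every with-peak tumor lay below every before-peak tumor. The log2 fold change was -0.78 (SE 0.22), or 0.581-fold, with an edgeR adjusted p of 0.332 and an unadjusted p of 0.00561. It stayed between -0.95 and -0.66 when each tumor was left out in turn. Sema5b, its paralog, had 1 to 14 counts per tumor, and its log2 fold change of 0.53 (SE 0.87) rests on them.

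Class 6 semaphorins are membrane ligands of A-type plexins. Sema6c (ENSMUSG00000038777, chromosome 3, 95160457 to 95174024), a class member found in muscle and nervous tissue, was at 5.38, 6.26 and 2.75 CPM before the peak and at 7.86, 8.54 and 8.15 CPM with it. The groups did not overlap and before-peak replicate 3 was the lowest. The log2 fold change was 0.77 (SE 0.33), or 1.70-fold, with an edgeR adjusted p of 0.517 and an unadjusted p of 0.0427. The 11 skeletal muscle markers, all positive, summed to 286, 88.7 and 68.1 CPM in the before-peak tumors and to 282, 1547 and 1541 CPM in the with-peak tumors. None of these markers was at 0 in any tumor, and the part of muscle in the Sema6c values was not tested. Without before-peak replicate 3 the log2 fold change was 0.49.

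The other class 6 genes differed less. Sema6b was the main one, at 26.3, 32.7 and 27.5 CPM before the peak and at 26.9, 38.3 and 28.5 CPM with it, with a log2 fold change of 0.12 (SE 0.17). Its groups overlapped, and in both of them replicate 2 was the highest. Sema6d, a ligand of Plxna1, had a log2 fold change of -0.33 (SE 0.21) at 27.1 to 39.3 and 20.3 to 32.1 CPM. Sema6a, a ligand of Plxna2 and Plxna4, had one of 0.05 (SE 0.27) at 5.32 to 8.92 and 7.58 to 8.38 CPM. Sema7a, the only class 7 member and anchored to the membrane by a lipid, binds Plxnc1 and beta-1 integrin. It was at 72.0, 104 and 72.3 CPM before the peak and at 86.3, 108 and 63.2 CPM with it, so the groups overlapped (log2 fold change 0.06, SE 0.22).

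**Figure D4:**
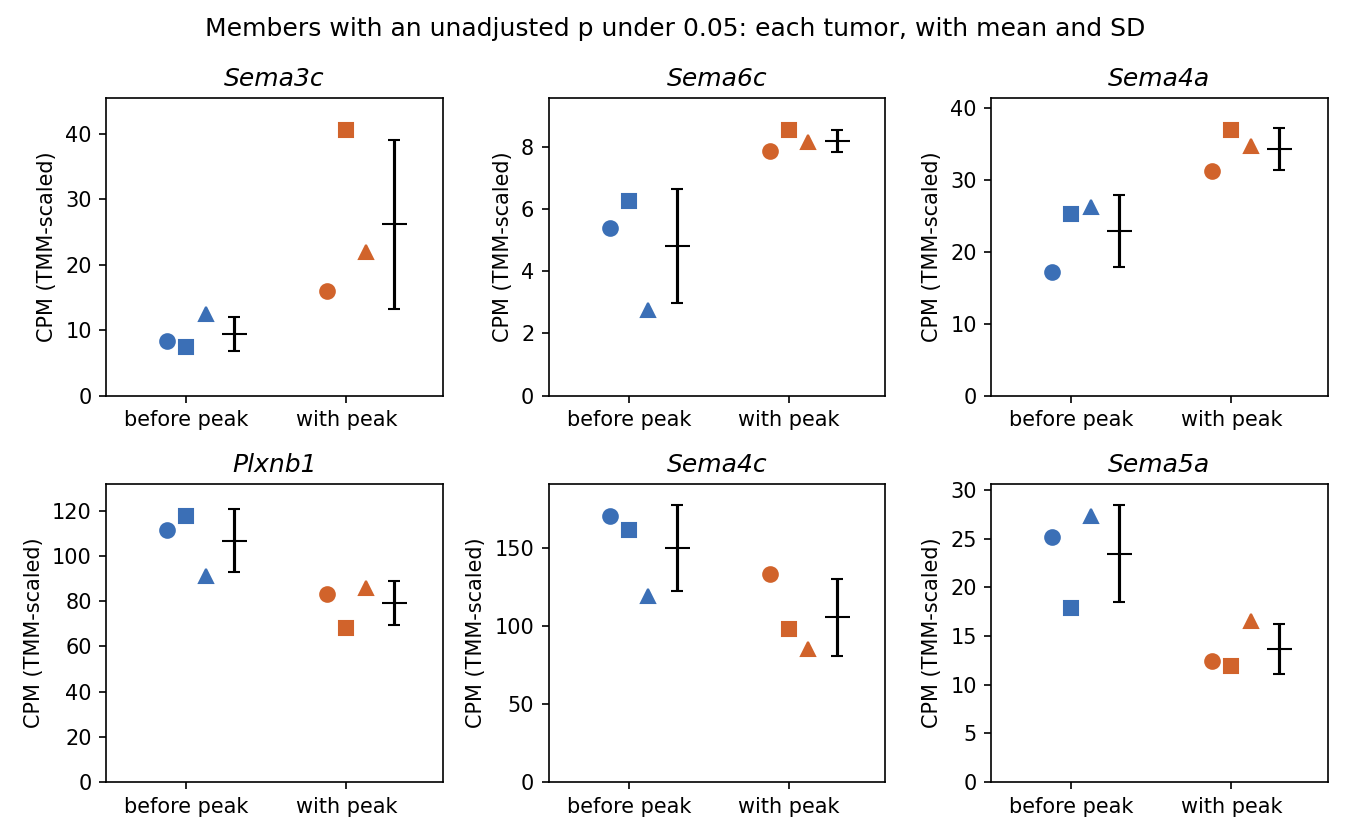
CPM (y axis from 0) in each tumor of the 6 members at an unadjusted p under 0.05, with the mean and SD of 3 tumors as a bar beside the points; marker shapes give replicates 1 (circle), 2 (square) and 3 (triangle). Sema3c, Sema6c and Sema4a lie higher in all 3 with-peak tumors, Plxnb1 and Sema5a lower in all 3, and Sema4c overlaps.

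The neuropilins, which hold class 3 semaphorins and VEGF-A at the cell surface, differed little in their means. Nrp2, the Sema3f co-receptor, was at 233, 309 and 243 CPM before the peak and at 270, 246 and 269 CPM with it. The with-peak tumors lay inside the before-peak range, and the log2 fold change was -0.0010 (SE 0.13, edgeR adjusted p = 0.999). Nrp1, the Sema3a co-receptor, was at 71.8, 46.8 and 67.3 CPM before the peak and at 41.6, 68.7 and 68.2 CPM with it. In each group 1 tumor stood low and 2 high, and the log2 fold change was -0.06 (SE 0.23, edgeR adjusted p = 0.953). Per length, Nrp2 held 72.8% to 84.5% of the summed neuropilin RPKM in all 6 tumors. The signs of both neuropilin log2 fold changes turned under some alternatives, so no direction is given for them.

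Of the 9 plexins, 4 had a positive and 5 a negative log2 fold change. The median of -0.05 is the value of Plxnb3, which had 2 to 12 counts per tumor. Plxnb1 (ENSMUSG00000053646, chromosome 9, 109095389 to 109119917), the Sema4d receptor of epithelial cells, was at 112, 118 and 91.1 CPM before the peak and at 83.3, 67.9 and 85.9 CPM with it. Every with-peak tumor lay below every before-peak tumor, the closest pair being 85.9 and 91.1 CPM. The log2 fold change was -0.43 (SE 0.14), or 0.740-fold, with an edgeR adjusted p of 0.395 and an unadjusted p of 0.0121. The 9 carcinoma epithelial markers, of which 7 had a negative log2 fold change, summed to 3721 to 4897 CPM before the peak and to 3103 to 4566 CPM with it. These sums overlap, none of the markers was at 0 in any tumor, and their part in the Plxnb1 and Sema4c values was not tested. The exons of Plxnb1 share 257 bases with the antisense gene Gm7628, which held 251 counts over the tumors against 6925 for Plxnb1.

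Plxnb2, a receptor of class 4 semaphorins and the highest member per length, was at 309, 311 and 291 CPM before the peak and at 309, 305 and 321 CPM with it. Its log2 fold change was 0.04 (SE 0.10), and its 2 groups overlapped closely. Per length, Plxnb2 made up 41.1% to 49.6% of the summed plexin RPKM in all 6 tumors. Plxnb3, the Sema5a receptor, had 2 to 12 counts per tumor and a log2 fold change of -0.05 with a wide SE of 0.74.

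A-type plexins pair with neuropilins and also receive class 6 semaphorins. Plxna1, the main one, was at 128, 146 and 132 CPM before the peak and at 130, 124 and 131 CPM with it, for a log2 fold change of -0.08 (SE 0.11). The groups overlapped, and its exons share 970 bases with the antisense gene Gm26811, which held 1809 counts against 9839 for Plxna1. Plxna2, Plxna3 and Plxna4 had log2 fold changes of 0.34 (SE 0.33), -0.30 (SE 0.19) and 0.01 (SE 0.27), and the groups overlapped for each. Plxnd1, the vascular receptor of Sema3e, was at 123, 175 and 131 CPM before the peak and at 128, 139 and 95.7 CPM with it, for a log2 fold change of -0.24 (SE 0.18). Plxnc1, the receptor of Sema7a on myeloid cells, was at 7.62, 7.99 and 15.1 CPM before the peak and at 7.22, 12.5 and 14.1 CPM with it, again with overlap.

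Other genes of the pathway were read from 3 lists. None of their 59 tested members passed the edgeR test, with 5 (8.47%) at an unadjusted p under 0.05, near the 9.5% of all genes. Among the 21 tested co-receptors and shared ligands, 7 were positive and 14 negative, with a median of -0.07. Tyrobp and Trem2, partners of Plxna1 in myeloid cells, had the smallest p of the list, with log2 fold changes of 0.73 (SE 0.15) and 1.16 (SE 0.27) and edgeR adjusted p of 0.179 and 0.262. DESeq2 called both higher, at adjusted p of 0.00574 and 0.00155, as it did 1.44% of all genes. The macrophage marker sums given above also did not overlap, and their part in these 2 genes was not tested. Of the 30 tested cytoplasmic effectors, 18 were positive and 12 negative, with a median of 0.06. Rap1b, a substrate of the plexin GTPase-activating domain, led that list with a log2 fold change of 0.40 (SE 0.11) and an edgeR adjusted p of 0.317. Of the 8 proteases that cleave or shed semaphorins, 3 were positive and 5 negative. Adam10 and Pcsk6 led that list at -0.18 (SE 0.12) and 0.36 (SE 0.41).

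Total counts ran from 10591067 to 14549357 per tumor. The share of counts in the mitochondrial rRNA genes was 0.0313% to 0.0456% in before-peak and 0.0587% to 0.0655% in with-peak tumors. Its part in the values of the 5 members without overlap was not tested. The share was higher in every with-peak tumor, so the groups did not overlap in it. Nor did they overlap in the summed CPM of 8 erythroid and platelet markers, which was 159 to 305 in before-peak tumors and 330 to 2204 in with-peak tumors, with all 7 tested markers positive. Neutrophil markers, all 5 tested ones positive, summed to 118 to 298 CPM before the peak and to 205 to 370 CPM with it. All 6 proliferation markers had a negative log2 fold change, with sums of 851 to 1033 and 771 to 925 CPM. The part of these in the members' values was not tested. Markers of neurons summed to 2.04 to 3.93 CPM before the peak and to 4.28 to 8.85 CPM with it over the 7 of 9 that were in the table, of which Elavl4, Rbfox3, Nefm and Prph were at 0 in at least 1 tumor. These low neuron sums did not overlap between the groups either, and their part in the members' values was not tested. Schwann cell markers summed to 59.7 to 90.2 and to 58.1 to 81.5 CPM.

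**Figure D5:**
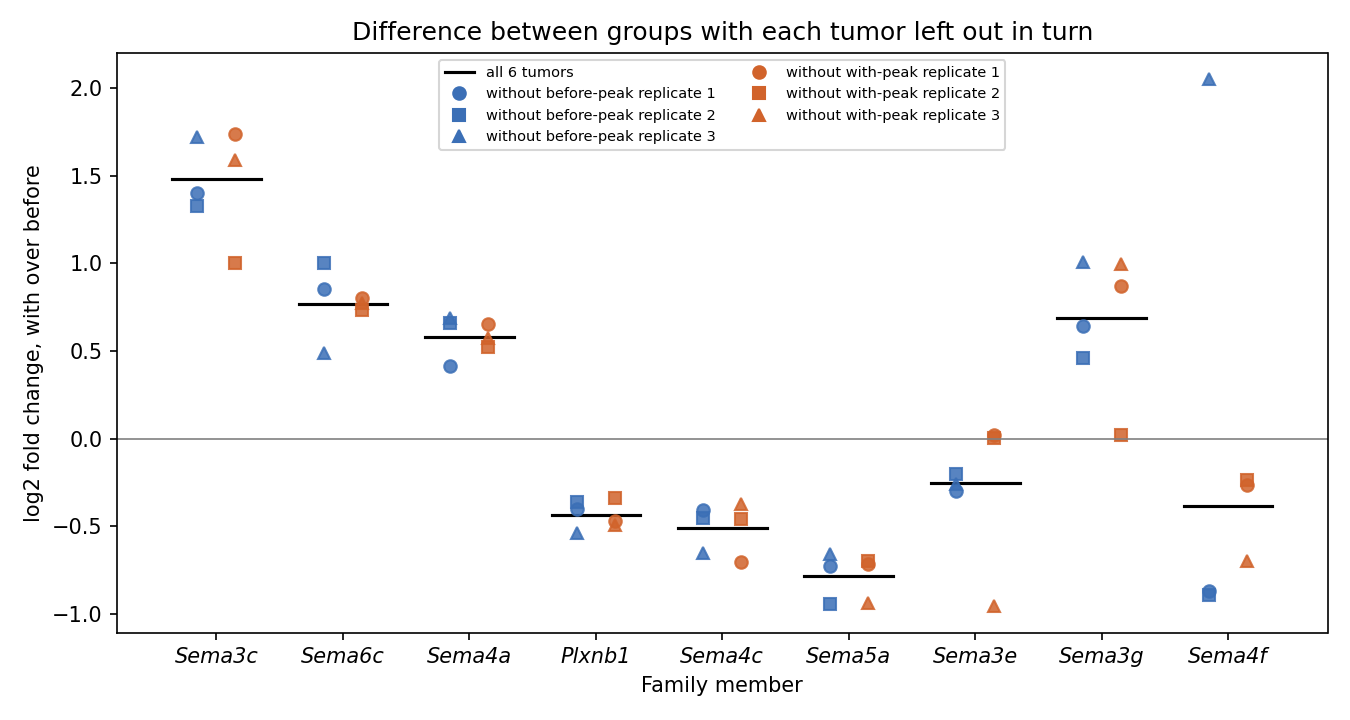
Log2 fold change (y axis) of 9 members in all 6 tumors (black line) and with each tumor left out in turn (points; colour and shape give the tumor left out). Sema3c stays between 1.00 and 1.74, while Sema4f turns to 2.05 without before-peak replicate 3, Sema3g comes to 0.02 without with-peak replicate 2, and Sema3e comes to -0.96 without with-peak replicate 3.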

How the data were processed

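Raw counts per gene were deposited, whole numbers with 1 column per tumor. FastQC, STAR and the mm10 build are named, without versions, per the submitters' processing notes; for the read counter and its annotation, the sources used here give no name. Libraries were oligo(dT)-selected and unstranded, per the labels' protocols. Of 23508 genes, 23479 matched GENCODE M21 (GRCm38, the assembly mm10 names). With edgeR 4.0.16 in R 4.3.3, filterByExpr (minimum count 10, minimum total 15) kept 16755 genes, TMM scaled the libraries, and a robust quasi-likelihood fit on all genes gave two-sided p-values, adjusted by Benjamini-Hochberg over all genes. SE is the size of the log2 fold change over the square root of F. Alternatives used DESeq2 1.42.0, limma 3.58.1 (voom), other scalings and filters, a replicate block and tumors left out. The test was checked on simulated counts. Between libraries of one group, chi-square over degrees of freedom ranged from 17.1 to 28.9, far above sampling noise, so none was a duplicate. Members, lists and rules were chosen with earlier results of these data known. Values in every tumor are given for members without overlap, at an unadjusted p under 0.05 or leading their class, for Sema3a, Sema3f, Nrp1 and Nrp2, and for some others chosen after their values were seen. Each pathway list is named by its 2 smallest p-values, except that 1 result is not reported here.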

Additional observations from a re-analysis of the deposited data

How the results depend on the processing

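Of the 31 members, 18 kept their sign under every alternative run, among them the 6 at an unadjusted p under 0.05, and only DESeq2 called a member (1, Sema3c) or a gene of the pathway lists (2, Tyrobp and Trem2, among co-receptors). The 6 were picked by their p in these same data, so their kept sign adds no support. For the 5 of them without overlap, leaving out tumors could hardly turn the sign. Over all genes, where edgeR called 0 higher and 0 lower, DESeq2 called 242 and 24, a threshold of 0.1 gave 32 and 3, leaving out the filter on low counts gave 26 and 3, and the replicate block 1 higher. Leaving out 1 tumor gave 0 to 17 genes higher (17 when before-peak replicate 2 was dropped, 13 for before-peak replicate 3 and 9 for with-peak replicate 1) and 0 lower. The 2 against 2 fit, which drops replicate 3 of both groups and was chosen after seeing the data, called 4 higher; the causes were not tested. Same-numbered tumors deviated together at correlations of -0.06, -0.10 and 0.03, so the numbers were not taken as pairs. Median log2 fold changes with 1 tumor left out were 0.16 to 0.60 for class 3, -0.20 to 0.22 for class 4 and -0.089 to 0.041 for A-type plexins. In the 2 against 2 fit they were 0.60, 0.26 and -0.12 for these, 0.22 for all semaphorins, -0.49 for B-type plexins and -0.13 for all plexins. For the last 3 groups the main fit gave 0.07, -0.05 and -0.05. The -0.49 is the value of Plxnb3 alone, the middle of 3 genes, which had 2 to 12 counts per tumor. Both main values of -0.05 are likewise that of Plxnb3. With at least 1 CPM in 3 libraries, class 5 was at -0.78, since Sema5b was left out. Signs turned for Nrp2 with RLE size factors (0.0021), DESeq2 (0.0020), limma-voom (0.0087) and the replicate block (0.0094); for Plxna4 with library size alone (-0.048), limma-voom (-0.0086) and 2 against 2 (-0.13); for Plxnb2 with library size alone (-0.021) and 2 against 2 (-0.013); for Sema4d (-0.034) and Sema6a (-0.0099) with library size alone; and for Sema4f with limma-voom (0.68), the replicate block (0.53) and 2 against 2 (1.75). With 1 tumor left out, ranges that crossed 0 were -0.23 to 0.15 for Nrp1, -0.079 to 0.13 for Nrp2, -0.087 to 0.10 for Plxna4, -0.36 to 0.40 for Plxnb3, -0.053 to 0.52 for Plxnc1, -0.96 to 0.018 for Sema3e, -0.053 to 0.18 for Sema4b, -0.14 to 0.26 for Sema4d, -0.90 to 2.05 for Sema4f, -0.15 to 0.18 for Sema6a, -0.060 to 0.22 for Sema6b and -0.14 to 0.25 for Sema7a. Sema5b, Plxnb3, Sema4f and Sema3d had under 20 counts in at least 1 tumor.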
